A study of Mus musculus with 6 samples.

Results

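circRNAs of 8 genes of the dystrophin complex were examined in the mouse aorta: Dmd, Utrn, Dtna, Dag1, Sgcd, Sgcb, Sntb1 and Sntb2. Every deposited circRNA entry whose host gene bears one of these names was taken, whatever its read count. This gave 80 of 10023 entries. Of these, 40 came from Dmd, 24 from Utrn, 12 from Dtna, 2 from Sgcd, 1 from Dag1 and 1 from Sntb2. Sgcb and Sntb1 had none, so 6 of the 3981 host genes in the table were members. An entry is 1 back-splice join with its coordinates, and its count is the number of sequencing reads that crossed this join.

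The aortas came from male ApoE-/- mice on a C57BL/6 background, which lack apolipoprotein E and form atherosclerotic plaques. From 6 weeks of age, 3 mice ate an HFD, rich in fat and with added cholesterol and cholic acid, and 3 ate a chow diet, which the sample labels call a normal diet, for 12 weeks. Every mouse of both groups was ApoE-/-, so both diets were compared on the same genetic background. Each library was taken as the aorta of 1 mouse, which the sample titles do not state. Back-spliced reads totalled 4694 to 5621 in the HFD aortas and 7142 to 7585 in the chow diet aortas, so the chow diet libraries were deeper without overlap. Below, values stand in the order HFD replicates 1, 2 and 3, then chow diet replicates 1, 2 and 3. Between replicates of a diet, counts varied beyond sampling noise, with a chi-square per degree of freedom of 2.08 to 3.52 over circRNAs with at least 30 reads.

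Dystrophin, the product of Dmd, ties the actin skeleton of muscle cells to dystroglycan in the cell membrane, and dystroglycan binds laminin outside the cell. Sarcoglycans steady this link, while dystrobrevins and syntrophins dock signalling proteins on its inner face. Loss of dystrophin causes Duchenne muscular dystrophy, and utrophin, its close relative, can take over part of its role. In the arterial wall the complex is known mainly from smooth muscle cells. circRNAs form when the end of a downstream exon is spliced back to the start of an upstream exon. The circle lacks free ends, and Dmd is known as a gene with many such circles.

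The joins of 4 circles are shown because the results turn on them: the leading Utrn circle, the leading Dmd circle, a Dmd circle across large introns near the start of the gene, and the Dmd circle that opens with the counterpart of the exon that opens the leading Utrn circle. Each run reads 5′ to 3′ across the join, with the last 40 bases of the circle's last exon in lower case and the first 40 bases of its first exon in capitals. Sequences and exon numbers came from GENCODE vM21 transcripts on GRCm38. All of these exons are coding, and each join lies between annotated exon ends. mmu_circ_0000144 joins exon 64 of Utrn back to exon 60 (chr10:12436281-12455564, minus strand), circRNA35 joins exon 18 of Dmd to exon 10 (chrX:83664048-83755500, plus strand), circRNA31 joins exon 7 of Dmd to exon 3 (chrX:83346262-83489945, plus strand), and mmu_circ_0016385 joins exon 67 of Dmd to exon 65 (chrX:85105144-85110100, plus strand).
mmu_circ_0000144: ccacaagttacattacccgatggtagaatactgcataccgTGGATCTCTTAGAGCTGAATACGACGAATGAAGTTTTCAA
circRNA35: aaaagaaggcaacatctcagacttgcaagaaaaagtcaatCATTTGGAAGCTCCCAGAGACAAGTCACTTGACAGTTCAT
circRNA31: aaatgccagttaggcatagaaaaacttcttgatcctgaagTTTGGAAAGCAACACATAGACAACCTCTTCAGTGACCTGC
mmu_circ_0016385: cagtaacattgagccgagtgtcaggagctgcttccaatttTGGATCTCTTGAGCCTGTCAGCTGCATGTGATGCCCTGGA

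Utrn encodes utrophin, and its reads were gathered on few joins. Its 24 entries lay on 74 exons (isoform ENSMUST00000076817, chr10:12382188-12861735, minus strand), and 143 back-spliced reads were counted over the 6 aortas. A single circle, mmu_circ_0000144, held 75 of them, or 52.4%, below the median leading share of 59.4% among host genes with at least 50 reads. This circle holds exons 60 to 64, which give a spliced length of 725 bases, and it had 6, 11 and 8 reads on the HFD against 24, 11 and 15 on the chow diet. It was found in every aorta, it was highest in chow diet replicate 1, and HFD replicate 2 and chow diet replicate 2 had equal reads, so the diets overlapped. Its share of Utrn's reads ran from 44.4% (95% Wilson interval 24.6 to 66.3) in HFD replicate 3 to 57.9% (36.3 to 76.9) in chow diet replicate 2, and each aorta's interval held the shares of the other 5. These intervals, and the floors given below, cover counting error only.

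The Utrn circle with the next most reads, mmu_circ_0002037, was of another kind. It runs over 24 exons, from exon 27 to exon 50 (chr10:12621191-12688427, minus strand), with a spliced length of 3786 bases. Its 19 reads were 1, 4 and 1 on the HFD against 12, 0 and 1 on the chow diet, so most came from chow diet replicate 1 and the diets overlapped. The remaining 22 entries held 1 to 8 reads each. Of all 24 entries, 18 had reads in a single aorta and 9 had a single read.

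The Utrn circles shared their edges. Exon 60 opened 5 entries, which held 93 of Utrn's reads, and exon 27 opened 7 entries, which held 32 (22.4%). The reads that opened at exon 60 numbered 6, 14 and 10 on the HFD against 26, 16 and 21 on the chow diet, and those that opened at exon 27 numbered 4, 7 and 1 on the HFD against 16, 3 and 1 on the chow diet. For exon 60 the 3 HFD aortas all had fewer raw reads than the 3 chow diet aortas, whose libraries were deeper, while for exon 27 the diets overlapped. Per 1000 back-spliced reads, the exon 60 values were 1.28, 2.49 and 2.05 on the HFD against 3.43, 2.24 and 2.81 on the chow diet, and these overlapped. Circles closed most often at exon 64, with 78 reads, at exon 50, with 21, and at exons 49 and 65, with 11 each. No entry touched exons 1 to 8 or exons 73 and 74. The actin-binding end of utrophin lies in the first exons of the gene.

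Dmd showed the opposite arrangement. Its 82 reads were spread over 40 entries on 79 exons (isoform ENSMUST00000114000, chrX:82948903-85206141, plus strand), more entries than for any other host gene in the table. Utrn ranked 4 and Dtna 35 by number of entries. The circle with the most reads, circRNA35, held 6 of the 82 reads, or 7.32%. Among the 114 host genes with at least 50 back-spliced reads, this was the lowest share held by a gene's leading circle, against a median of 59.4%. For Utrn, 48 of these genes had a lower share, and for Dtna 12. Of the 40 Dmd entries, 31 had reads in a single aorta and 18 had a single read, and among all 10023 entries 74.4% had reads in a single aorta.

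No Dmd circle was found in all 6 aortas. circRNA35, which holds exons 10 to 18 with a spliced length of 1332 bases, had 0, 0 and 0 reads on the HFD against 1, 0 and 5 on the chow diet. It rested mostly on chow diet replicate 3. circRNA31, with exons 3 to 7, had 1, 0 and 0 reads on the HFD against 1, 1 and 2 on the chow diet, and circRNA2815, with exons 5 and 6, had 1, 0 and 1 and then 0, 1 and 2. mmu_circ_0016385, with exons 65 to 67, had 0, 0 and 1 and then 1, 1 and 1. No Dmd circle had more than 3 reads in an HFD aorta, and the diets overlapped for each of the 4.

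Along Dmd, most reads pooled over the 6 aortas came from circles near the start of the gene. Within single aortas, this held only for chow diet replicates 2 and 3. The exon ranges below follow the edges of the entries themselves. The 19 entries wholly within exons 2 to 21 held 46 of the 82 reads (56.1%), 12 entries within exons 26 to 61 held 16, and 4 entries within exons 65 to 77 held 11. The other 5 entries reached across these ranges, covered 18 to 43 exons each and held 9 reads. Reads from exons 2 to 21 numbered 6, 3 and 1 on the HFD against 7, 10 and 19 on the chow diet, with chow diet replicate 3 the highest. This was 10 of the 27 Dmd reads on the HFD (37.0%) against 36 of 55 on the chow diet (65.5%), a difference that was not tested. Reads from exons 26 to 61 numbered 1, 1 and 4 and then 5, 2 and 3, those from exons 65 to 77 numbered 1, 0 and 2 and then 3, 1 and 4, and those of the 5 entries across the ranges numbered 4, 4 and 0 and then 1, 0 and 0. Exons 2 to 21 held fewer reads than the entries across the ranges in HFD replicate 2, and fewer than either later range in HFD replicate 3. Over all entries, 75 of the 79 exons lay inside some circle, and exons 1, 48, 78 and 79 lay in none. Exon 8 opened 7 entries that closed at different exons, from exon 9 to exon 34, and exons 44 and 77 each closed 4 entries.

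**Figure D1:**
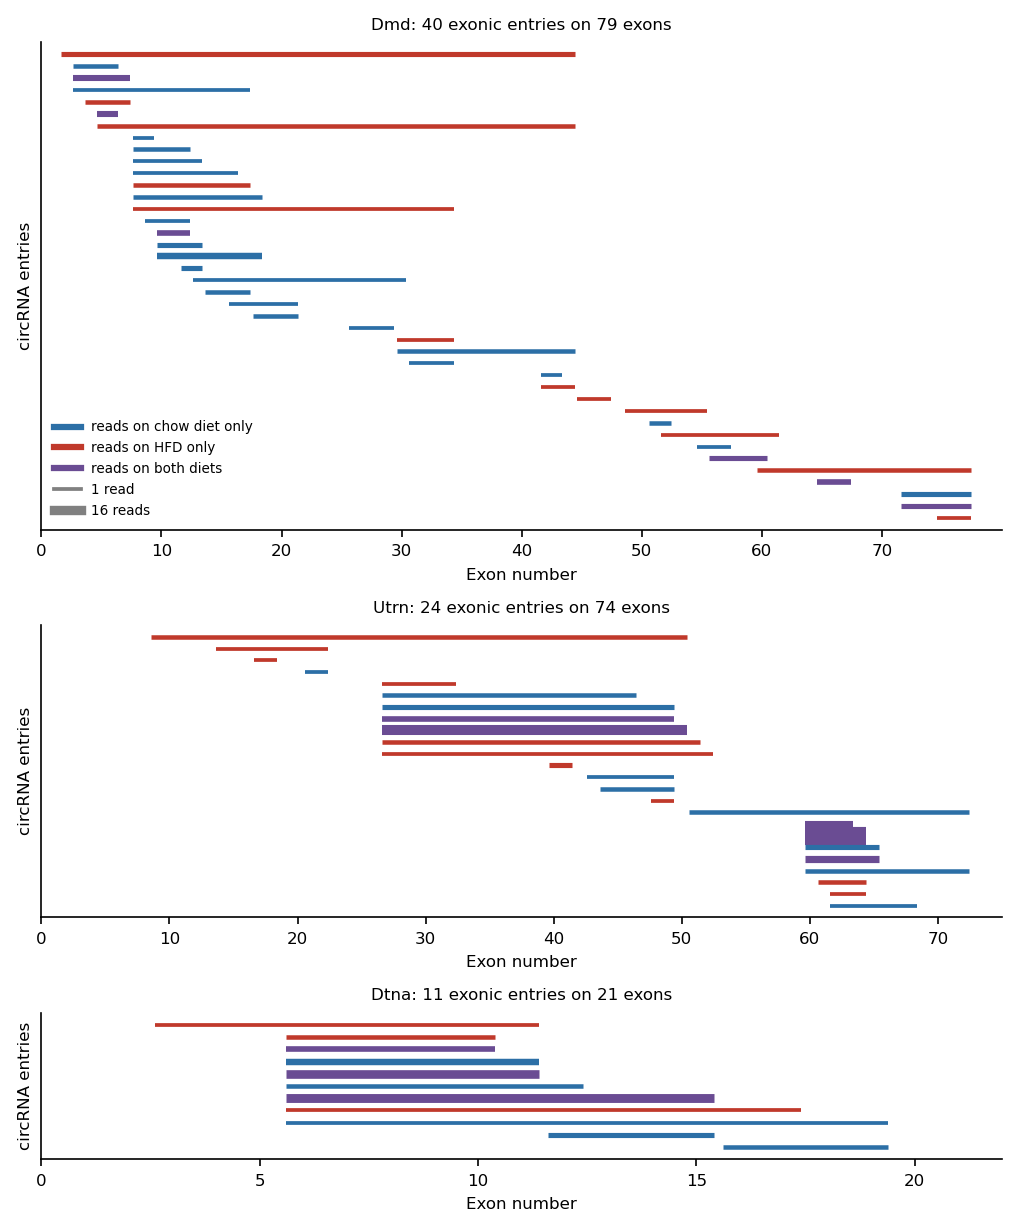
Exonic circRNA entries of Dmd (40), Utrn (24) and Dtna (11) by exon number on the reference isoform. Each bar runs from the first to the last exon of an entry, its width grows with the square root of its reads over the 6 aortas, and its colour gives the diets that had reads. Dmd bars are thin and spread over the gene, while Utrn bars gather at openings in exons 27 and 60 and Dtna bars at exon 6.

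Dmd circles were also long. The median Dmd entry spanned 61153 bases of genome and the median Utrn entry 24524, against 9329 over the 8767 exonic entries that could be placed on annotated exons. In exons, the medians were 5 for Dmd, 6.5 for Utrn and 4 over these placed entries. Circles of 8 or more exons made up 12 of 40 entries for Dmd and 10 of 24 for Utrn, against 15.98% over the placed entries. circRNA6139 reached from exon 2 to exon 44 (chrX:83136628-84022412, plus strand), a span of 885785 bases, and was the longest of the placed entries. It rested on 3 reads, all in HFD replicate 1, and Dmd gave 5 of the 20 longest entries. An entry gives only the join, so which exons a circle between distant joins keeps was not measured, and spliced lengths assume that it keeps all of them.

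The introns beside circle edges were longer at the median than the other introns of both genes. In Dmd, 39 of 78 introns had a circle edge at one of their sides, and their median length was 25.98 kb, against 2.61 kb for the 39 introns with none. All 6 Dmd introns over 100 kb had an edge beside them. Intron 7, of 137316 bases, had 9 entries at its sides, more than any other Dmd intron, and intron 44, the longest with 249539 bases, had 5. Of the 40 Dmd entries, 19 bordered an intron over 100 kb, against 3.80% of the placed entries of the whole table. In Utrn, 26 of 73 introns had an edge beside them, with a median length of 5.46 kb against 1.65 kb for the other 47. Intron 1 of Utrn, its longest with 96235 bases, had none, and intron 26, which precedes exon 27 and its 7 entries, has the median length of the Utrn introns, 2302 bases. These are descriptions of introns of 2 genes, without a test.

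**Figure D2:**
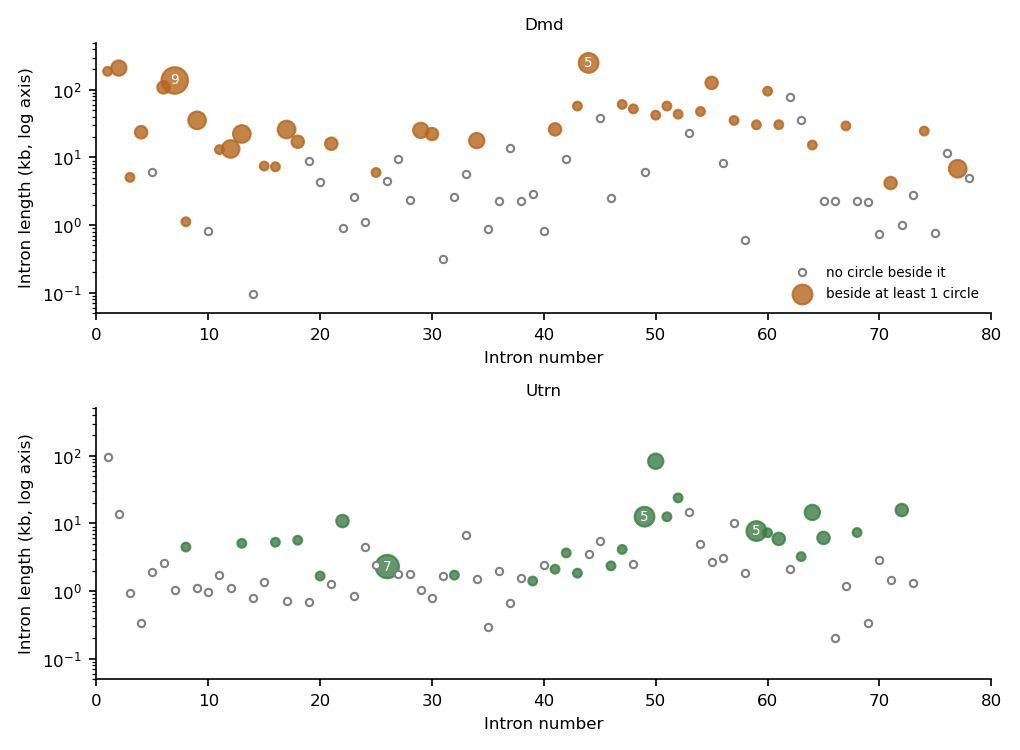
Length of every intron of Dmd (above) and Utrn (below) in kb on a log axis, by intron number. Filled points are introns with at least 1 circle that closes before or opens after them, sized by the number of such entries (printed where 5 or more), and open points are introns with none. In Dmd the filled points sit mostly above the open ones, with the largest point at intron 7.

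Dmd is known to have further promoters inside the gene that give shorter dystrophins. Among the 14 annotated Dmd transcripts, exons 2, 30, 45, 55, 56, 63 and 76 of the long isoform were each the second exon of at least 1 transcript. A circle opened at 5 of these 7 exons and at 21 of the other 72. The entries were few, with 1 each at exons 2, 45, 55 and 56 and 2 at exon 30, with 3 reads each at exons 2, 30 and 56 and 1 read each at exons 45 and 55. Exon 63, the second exon of 5 of the annotated transcripts, opened no circle.

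Dystrophin and utrophin derive from a common ancestor, and their exons could be aligned through the proteins. Over 3380 aligned residues, 49.6% were identical, and the alignment paired each Utrn exon with an exon of Dmd. The exons of the leading Utrn circle, 60 to 64, match exons 65 to 69 of Dmd base for base in length, at 202, 86, 158, 167 and 112 bases. These exons encode the part of both proteins that binds dystroglycan. mmu_circ_0016385 of Dmd opens at exon 65, the counterpart of exon 60 of Utrn, but closes after exon 67, the counterpart of exon 62. It had 4 reads against 75 for the Utrn circle, and no Dmd entry closed at exon 69.

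Both opening exons are shown whole, because the same position opens a circle in each gene. Capitals mark the bases that differ between them. They differ at 60 of 202 bases and are 70.3% identical, and both begin with the same 10 bases, the first bases after the join printed above. Exon 60 of Utrn lies at chr10:12455363-12455564 on the minus strand and exon 65 of Dmd at chrX:85105144-85105345 on the plus strand, in GRCm38.
Utrn exon 60: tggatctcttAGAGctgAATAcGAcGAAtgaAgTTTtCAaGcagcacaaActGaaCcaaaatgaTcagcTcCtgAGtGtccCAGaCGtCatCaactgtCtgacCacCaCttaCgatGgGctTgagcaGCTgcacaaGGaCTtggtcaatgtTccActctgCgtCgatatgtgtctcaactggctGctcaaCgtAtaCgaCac
Dmd exon 65: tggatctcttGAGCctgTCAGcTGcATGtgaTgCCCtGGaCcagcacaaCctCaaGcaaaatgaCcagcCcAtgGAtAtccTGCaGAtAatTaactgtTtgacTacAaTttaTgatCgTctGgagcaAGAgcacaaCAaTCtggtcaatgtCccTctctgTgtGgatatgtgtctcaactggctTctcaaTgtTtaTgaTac

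Elsewhere the sites in use were mostly different. Of the 13 Utrn exons that opened a circle, the Dmd counterparts of 4 also did, and of the 14 that closed a circle, the counterparts of 4 also did. For opening exons this was 4 of 13 for Utrn and 4 of the 26 in use in Dmd, and for closing exons 4 of 14 and 4 of 22. Of all 79 Dmd exons, 26 opened a circle and 22 closed one. The shared sites were thus near the share over the whole gene, and no preference for counterparts was shown. The shared openings were exon 9 of Utrn with exon 10 of Dmd, 17 with 18, 51 with 56 and 60 with 65. Shared closings were 41 with 44, 50 with 55, 52 with 57 and 72 with 77. Exon 72 of Utrn closed 2 entries with 4 reads and exon 77 of Dmd 4 entries with 9 reads. Exon 27 of Utrn opened 7 entries, and its counterpart, exon 28 of Dmd, opened none. Exon 8 of Dmd opened 7, and exon 8 of Utrn opened none. With most sites resting on 1 or 2 reads, a site without reads may lie below what this depth could show.

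**Figure D3:**
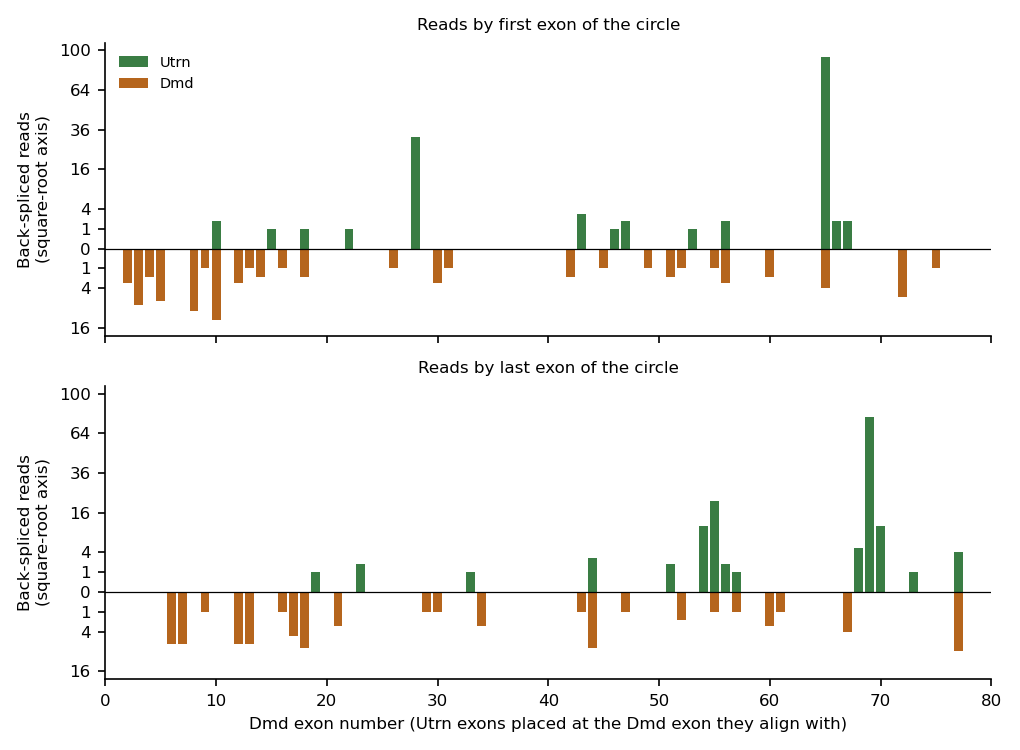
Back-spliced reads over the 6 aortas by the first exon (above) and the last exon (below) of the circle, for Utrn (upward bars) and Dmd (downward bars), on a square-root axis. Utrn exons are placed at the Dmd exon that they align with. The tallest Utrn bar, 93 reads at exon 60, stands at exon 65 of Dmd, where Dmd has 4 reads.

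Dtna encodes alpha-dystrobrevin, which binds dystrophin and syntrophins. Its 12 entries held 54 reads, and 8 of the 11 exonic entries opened at exon 6 of 21 (isoform ENSMUST00000115832), with 43 of the 54 reads (79.6%). The reads that opened at exon 6 numbered 1, 7 and 6 on the HFD against 5, 16 and 8 on the chow diet. Alpha-dystrobrevin is related to dystrophin over a stretch of 528 aligned residues with 33.0% identity, and in this alignment its exon 6 stands against exon 66 of Dmd and exon 61 of Utrn, each of 86 bases. Exon 61 of Utrn opened 1 entry with 2 reads and exon 66 of Dmd opened none. As the next exon after the shared opening of Utrn and Dmd, it is near but not the same site.

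The Dtna circle with the most reads in 1 entry was circRNA1004, with exons 6 to 15 and a spliced length of 1120 bases. It had 0, 2 and 1 reads on the HFD against 2, 7 and 2 on the chow diet, so chow diet replicate 2 was the highest and the diets overlapped at 2 reads. mmu_circ_0000855, with exons 6 to 11, had 1, 2 and 3 reads and then 2, 0 and 5. circRNA4609 has the same end as this entry and a start 1 base further in, and its 6 reads all came from chow diet replicate 2, the aorta in which mmu_circ_0000855 had none. Summed, the pair had 1, 2 and 3 reads on the HFD against 2, 6 and 5 on the chow diet, 19 in all, and was then the leading circle of Dtna. Among the members, 5 such pairs were found, 2 in Dtna, 2 in Utrn and 1 in Dmd, and after summing them the 80 entries made 75 circles. The remaining Dtna entry, ciRNA168, was deposited as intronic, but it spans 153454 bases with 5 exons inside it and starts at no intron edge. Its 5 reads all came from chow diet replicate 1.

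The other members had hardly any circRNA reads. Dag1 encodes dystroglycan, and its single entry, mmu_circ_0001841, is exon 3 alone (chr9:108218013-108218410), which holds the start of the coding sequence. It had 0, 0 and 1 reads on the HFD against 2, 1 and 1 on the chow diet. Sgcd, for delta-sarcoglycan, had 2 entries that both open at exon 3, with 0, 0 and 1 reads and then 0, 1 and 0. Sntb2, for beta-2-syntrophin, had 1 entry of exons 2 and 3, again with 0, 0 and 1 reads and then 0, 1 and 0. Sgcb, for beta-sarcoglycan, and Sntb1, for beta-1-syntrophin, had 0 of 37393 back-spliced reads, which allows up to 3 reads or 0.0802 per 1000. All of these genes lay at or under the floor of 3 reads in every aorta, and no fold change is given for them.

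For the comparison of the diets, reads were first summed by host gene. Utrn had 12, 23 and 18 reads on the HFD against 45, 19 and 26 on the chow diet. HFD replicate 2 exceeded chow diet replicate 2, so the diets overlapped. Dmd had 12, 8 and 7 reads and then 16, 13 and 26, and Dtna had 1, 7 and 7 and then 14, 17 and 8. For both genes the raw reads were lower in each HFD aorta than in each chow diet aorta, and the HFD libraries were shallower. How many host genes had raw reads without overlap was not counted.

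Per 1000 back-spliced reads, which allows for the unequal depth, the diets overlapped for all 3 genes. Utrn stood at 3.45 ± 0.797 reads per 1000 on the HFD against 4.02 ± 1.70 on the chow diet (mean ± SD, n = 3 each; two-sided exact permutation test, p = 0.8). Dmd stood at 1.81 ± 0.651 on the HFD against 2.47 ± 0.885 on the chow diet (mean ± SD, n = 3 each; two-sided exact permutation test, p = 0.5). Dtna stood at 0.965 ± 0.658 on the HFD against 1.77 ± 0.659 on the chow diet (mean ± SD, n = 3 each; two-sided exact permutation test, p = 0.3). These were 3 tests, and 3 aortas against 3 allow no p under 0.1. The order of the levels was Utrn, Dmd and Dtna on both diets, and neighbours in this order overlapped, with Utrn and Dmd both at 3.48 in chow diet replicate 3 and both at 2.56 in HFD replicate 1. These levels count reads across joins and were not divided by a length.

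The 8 genes together gave 5.33, 6.76 and 7.18 reads per 1000 on the HFD against 10.2, 7.28 and 8.16 on the chow diet. All 3 HFD aortas were lower than all 3 chow diet aortas, by a margin of 7.18 against 7.28. The mean difference of HFD minus chow diet was −2.11 per 1000, and it was −1.30 without chow diet replicate 1, the highest aorta. No test was made on this sum. Of the 2240 host genes tested below, 199 (8.88%) had shares that did not overlap between the diets in either direction. Of the 235 with at least 30 reads, 32 (13.6%) did not overlap, and 19 (8.09%) had lower shares on the HFD without overlap. These are single genes, while the value of the 8 genes is a sum.

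**Figure D4:**
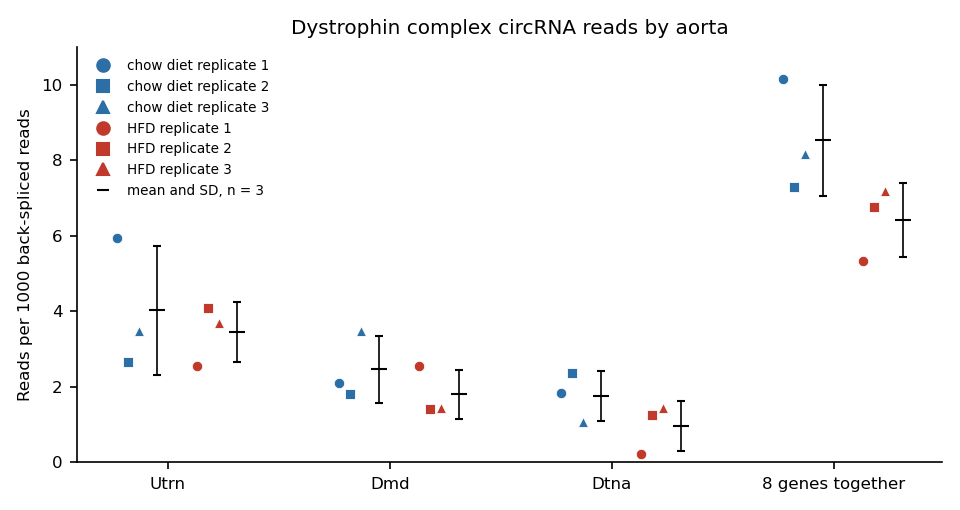
Back-spliced reads of Utrn, Dmd, Dtna and the 8 genes together, per 1000 back-spliced reads of the library, in each of the 6 aortas. Points are aortas, blue for the chow diet and red for the HFD, and bars give the mean and SD (n = 3). The diets overlap for each gene, and for the sum the HFD aortas reach 7.18 and the chow diet aortas start at 7.28.

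Fold changes were fitted over all host genes with reads in at least 2 aortas, by edgeR's quasi-likelihood test, and a change was called at an unadjusted p under 0.05 with an absolute log2 fold change above 1, the criteria of the study. Of the 2240 host genes tested, 100 were called, or 4.46%, 38 higher and 62 lower on the HFD. Of the 6 member genes tested, 0 were called, with 0 at an unadjusted p under 0.05, and DESeq2 and limma called 0 as well. Relative to the chow diet, Dmd had a log2 fold change of −0.67 (SE 0.473, edgeR adjusted p = 0.746), Utrn one of −0.44 (SE 0.363, edgeR adjusted p = 0.824) and Dtna one of −1.06 (SE 0.598, edgeR adjusted p = 0.674). Adjusted p-values here and below are Benjamini-Hochberg values over all host genes or all circRNAs tested.

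Scaling moved all of these values together. With TMM scaling the median log2 fold change over all host genes was −0.17, and with total back-spliced reads alone it was 0.02, and the calls then split into 47 higher and 42 lower. Relative to the median of the same fit, Dmd stood at −0.50 with either scaling, Utrn at −0.27 and −0.26, and Dtna at −0.89 and −0.88.

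Single aortas carried part of these values. Without chow diet replicate 1 the log2 fold change of Utrn was −0.026, and without chow diet replicate 3 that of Dmd was −0.23. Without HFD replicate 1, which had a single Dtna read, that of Dtna was −0.48. Without chow diet replicate 3, Dtna met the criteria, with a log2 fold change of −1.18. The fitted log2 fold change was negative for all 3 genes in each of the 14 alternatives run, while the difference per 1000 of Utrn turned to 0.378 without chow diet replicate 1. Dtna was not called in the other 13 alternatives.

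Of the 80 member entries, 21 had reads in at least 2 aortas and were tested one by one. Over the whole table, 104 of 2564 circRNAs were called, or 4.06%, 33 higher and 71 lower on the HFD, and with total back-spliced reads alone 40 were higher and 43 lower. Of the 21 member circRNAs, 0 were called by edgeR, with 0 at an unadjusted p under 0.05, and DESeq2 and limma also called 0. The leading Utrn circle mmu_circ_0000144 had a log2 fold change of −0.69 (SE 0.562, edgeR adjusted p = 0.721), smaller than 2 standard errors. Values for mmu_circ_0002037 (−0.82, SE 1.15), circRNA1004 (−1.49, SE 1.37) and mmu_circ_0000855 (0.12, SE 1.34) had standard errors near or above their size. For mmu_circ_0002037 the sign turned with limma (0.063), with the replicate block (0.019) and without chow diet replicate 1 (2.01). For mmu_circ_0000855 the sign turned when the entry 1 base away was added, at −0.71.

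**Figure D5:**
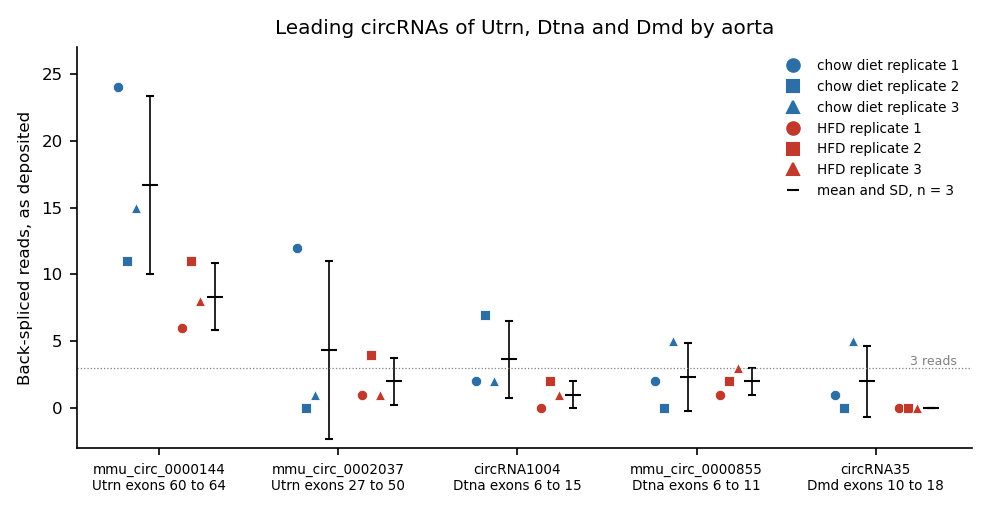
Back-spliced reads as deposited for the 4 member circRNAs with at least 10 reads, and for circRNA35, the leading Dmd circle, in each aorta. Blue points are chow diet aortas, red points HFD aortas, bars the mean and SD (n = 3), and the dotted line marks 3 reads. mmu_circ_0000144 reaches 24 reads in chow diet replicate 1 and lies at or below 15 in the other aortas, and circRNA35 has no HFD reads.

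Most member entries were seen on 1 diet alone. Of the 40 Dmd entries, 22 had reads only on the chow diet, 12 only on the HFD and 6 on both. For Utrn these numbers were 9, 10 and 5, and for Dtna 6, 3 and 3. Over the 80 member entries, 47.5% had reads only on the chow diet and 32.5% only on the HFD, and over all 10023 entries these shares were 47.3% and 33.4%. Dmd showed 8, 5 and 7 entries in the HFD aortas against 13, 10 and 12 with chow diet, and Utrn 6, 7 and 9 and then 7, 4 and 7. For Dmd these counts did not overlap, and the chow diet libraries were deeper. Over the whole table, 2108 to 2260 entries had reads in an HFD aorta and 2795 to 2965 in a chow diet aorta, also without overlap. An entry seen on 1 diet is not shown to differ.

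Beside the members, 25 other genes linked to the complex were looked up: further sarcoglycans, syntrophins and dystrobrevin, laminins, ankyrins, caveolins and membrane repair genes. Of these, 13 had circRNA reads, 9 were tested and 0 were called by edgeR, with 0 at an unadjusted p under 0.05. Dtnb, for beta-dystrobrevin, had 4, 8 and 5 reads on the HFD against 14, 3 and 15 on the chow diet. Dysf, for dysferlin, which acts in membrane repair, had 2, 13 and 3 reads and then 10, 10 and 7. Both genes overlapped between the diets. Over the 4 list genes with at least 10 reads the median log2 fold change was 0.24, and over all 880 such host genes it was −0.24.

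Markers of the cell types of the aorta were read the same way, by the circRNA reads of their host genes. Of 12 smooth muscle genes 9 had reads, with 3.08 to 4.80 reads per 1000 on the HFD and 6.72 to 9.63 on the chow diet, without overlap. Tagln, Cnn1 and Des were at 0. Most of these reads came from Itga8, with 7, 14 and 6 reads on the HFD against 43, 28 and 41 on the chow diet (log2 fold change −1.71, SE 0.395, edgeR adjusted p = 0.00817), and from Myocd, with 11, 9 and 6 and then 17, 16 and 21. Itga8 was the only gene called of the 6 list genes tested. It was called in all 14 alternatives, where its adjusted p in these edgeR, DESeq2 and limma fits ran from 0.0113 to 0.443. Without Itga8 the list gave 2.98, 2.31 and 1.85 reads per 1000 on the HFD against 3.16, 2.80 and 4.15 on the chow diet, and the diets overlapped. The genes other than Itga8 and Myocd held 3, 4 and 3 reads and then 7, 4 and 10. Itga8 was lower on the HFD beside the lower member sum, and its part in the members' values was not tested. In bulk tissue, fewer cells of a type and less RNA per cell cannot be told apart.

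The other lists were sparse. Ttn, whose 9 HFD reads all came from HFD replicate 3, stands in both the skeletal and the cardiac muscle list. Of 13 skeletal muscle genes 3 had reads, with 0 to 1.85 per 1000 on the HFD and 0 to 0.659 on the chow diet, and Myh1, Myh2, Myh4, Actn3, Neb and Ckm were at 0. Of 7 cardiac muscle genes 2 had reads, with 0.178 to 1.85 and 0.28 to 0.659, of 10 macrophage and leukocyte genes 7, with 1.70 to 3.74 and 2.10 to 2.41, and of 7 endothelial genes 2, with 0.534 to 1.64 and 0.14 to 0.401. Of 6 fibroblast genes 3 had reads, with 0.213 to 1.03 per 1000 on the HFD and 0 to 0.134 on the chow diet. Col3a1, for a fibrillar collagen, met the criteria with 0, 5 and 1 reads and then 0, 0 and 0 (edgeR adjusted p = 0.674). Its reads came mostly from HFD replicate 2. It was 1 of 2 list genes tested, while 4.46% of all host genes were called. Neither the fibroblast nor the endothelial list overlapped between the diets per 1000, and both rested on few reads. Raw reads were 1, 5 and 5 and then 0, 0 and 1 for the fibroblast list. For the endothelial list they were 3, 3 and 8 and then 3, 1 and 3, so raw reads of the diets met in both lists. Of single host genes, 8.88% did not overlap per 1000, and no such share was made for lists. Of 6 adipocyte genes 3 had reads, with 0.213 to 0.41 and 0.396 to 0.803, and of 6 Schwann cell and nerve genes 2, with 0 to 0.426 and 0 to 0.264. Their part in the members' values was not tested.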

How the data were processed

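circRNAs were measured in 6 mouse aortas, 3 per diet, and mice were grouped by the diet in the labels. RNA was treated with RNase R per the labels, the study's methods name ribosomal RNA depletion, and libraries were stranded. The authors used Cutadapt for trimming, TopHat-Fusion for back-splices in unmapped reads, and CIRCexplorer with CIRI for assembly. They deposited counts of back-spliced reads per entry, without normalization, and a signal, SRPBM, which is each count divided by a library depth (57.7 to 73.7 M reads). The genome build is not given in the sources used here; exon edges matched GENCODE vM21 (GRCm38). Columns of the authors' fold changes, p-values and q-values were not used. All 891 Ensembl identifiers in the host gene column were named through a table.

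Counts were tested over the whole table with edgeR 4.0.16 (TMM, quasi-likelihood, R 4.3.3), with reads in at least 2 aortas and Benjamini-Hochberg adjustment. Shares were compared by exact permutation tests (scipy 1.17.1). Proteins translated from the transcripts were aligned with Biopython 1.88 to pair exons. Alternatives were DESeq2 1.42.0, library size alone, the authors' depth, limma 3.58.1 on log2 of SRPBM plus its smallest value above 0, other filters, entries 1 base apart summed, SRPBM in place of normalized reads, a replicate block and leaving out each aorta in turn. The models were tested on simulated counts first. Named were all 8 genes, their circRNAs with at least 10 reads or meeting the criteria, the leading circRNA of each gene, and list genes with at least 30 reads or meeting the criteria. The result of 1 further list is not reported here. circRNA31, circRNA2815, circRNA6139, circRNA4609, mmu_circ_0016385 and ciRNA168 were added after their values were seen. So were the exon ranges of Dmd and the descriptions of introns, paralogous exons and second exons. Members and lists were chosen with earlier results of these data known. The sample titles give a diet and a number, and each library was taken as the aorta of a different mouse. On this reading, p-values measure the spread between aortas.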

Additional observations from a re-analysis of the deposited data

How the results depend on the processing

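The count of member circRNAs called stayed at 0 in 14 of 15 alternatives and was 1 with reads in at least 3 aortas, where circRNA6309 of Utrn met the criteria from 1 read in each HFD aorta. The count of member genes called stayed at 0 in 13 of 14 alternatives and ran from 0 to 1 as aortas were left out. Leaving out aortas, the HFD minus chow diet difference per 1000 ran from −1.26 to 0.378 for Utrn, reversed without chow diet replicate 1, from −1.04 to −0.16 for Dmd and from −1.15 to −0.425 for Dtna. The log2 fold change of mmu_circ_0002037 was 0.063 with limma and 0.019 with the replicate block, and ran from −1.69 to 2.01 as aortas were left out. That of mmu_circ_0000855 was −0.71 with entries 1 base apart summed and ran from −0.50 to 1.19, and that of Dysf ran from −1.34 to 0.19. The cause was not tested. Over the whole table, 104 circRNAs were called by edgeR, 23 by DESeq2, 49 with at least 10 reads, 30 with the replicate block and 57 to 117 as aortas were left out, and for host genes these counts were 100, 34, 49, 41 and 49 to 118. With the replicate number as a block, 0 member circRNAs and 0 member genes were called. Same-numbered aortas did not deviate together (correlations of −0.15, −0.16 and −0.06 over 200 circRNAs) and share only a number. Of the 80 member entries, 4 had at least 10 reads.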
